A study of Mus musculus with 2 samples.

Results

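The genes described here are the 80 genes whose symbols name a protein of the cytosolic ribosome by the pattern Rpl or Rps followed by a number, out of 32285 genes listed in the deposited tables. Membership was set by symbol alone, although the family was chosen with earlier results of these data known. The 80 genes comprise 49 genes of the large subunit and 31 of the small subunit. Raw counts of unique molecular identifiers (UMIs, 1 per captured transcript) came from droplet-based 3' single-cell RNA sequencing of whole pituitary glands of male C57BL/6 mice. The old library pooled the glands of 10 mice aged 20 months, and the young library pooled the glands of 10 mice aged 2 months. The labels name no genotype or treatment, and strain and sex were shared. With 1 pooled library per age, the age and the library cannot be told apart, no test between ages was possible, and the 95% intervals given (exact Poisson or binomial) cover counting error only.

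Ribosomal proteins assemble with ribosomal RNA into the small subunit, which reads the mRNA, and the large subunit, which forms the peptide bond. Their mRNAs are among the most abundant in most cells, and in mammals they share a 5' terminal oligopyrimidine (TOP) start, a cytosine followed by a run of pyrimidines, through which mTOR and the RNA-binding protein Larp1 control their translation. In the pituitary, hormone-secreting cells spend much of their translation on a few hormone mRNAs.

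RefSeq promoter entries (build GRCm38.p6) matched 61 of the 80 genes. The submitters' processing notes name GRCm39, so these positions belong to another build than the count tables and serve only to show the sequence. A run of at least 8 pyrimidines (C or T on the gene's strand, found by script) lay within the 30 bases around the annotated start of 24 of the 61 genes, or 39.3%, against 11.9% of 27025 genes with an entry. The following windows are shown because their genes recur in the results, or because they are paralogs of such genes; the longest pyrimidine run of each is in capitals.
Rpl15: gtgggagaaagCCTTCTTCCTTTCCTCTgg
Rps18: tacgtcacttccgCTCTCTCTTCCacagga
Rps27: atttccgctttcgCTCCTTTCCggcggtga
Rps27l: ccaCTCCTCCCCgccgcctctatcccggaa
Rps21: taccgaggacccgCCCTCCTgcccaatagt
Rpl3l: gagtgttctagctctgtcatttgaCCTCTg
The Rpl15 window (chr14:18270972-18271001, minus strand) held a run of 17 pyrimidines, and the Rps18 window (chr17:33955651-33955680, minus strand) a run of 11. Rps27 (chr3:90213634-90213663, minus strand) and its paralog Rps27l (chr9:66946071-66946100, plus strand) each held a run of 9. Rps21 (chr2:180257364-180257393, plus strand) had 7, and Rpl3l (chr17:24727811-24727840, plus strand), a paralog of Rpl3 used in striated muscle, had 5. A run in this window is a description of the annotated start; where transcription started in these glands was not measured, since the libraries read 3' ends.

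The tables held 138427393 UMIs in the old and 154510099 UMIs in the young library. After filters, 9017 old and 8531 young barcodes remained, of which 26 sequences occurred in both libraries. A cluster of 5550 old and 0 young barcodes had the profile of near-empty droplets and is called free RNA. It was left out of the classes, which leaves 3467 old barcodes with a median of 5850 UMIs and 8531 young barcodes with a median of 6317 UMIs. Clusters were named by markers and carry the word "like", and ribosomal protein genes took no part in choosing the clustering genes. In each of the 10 classes that held at least 50 barcodes in both libraries, every marker of the named class had UMIs in both libraries. Somatotroph markers, Gh among them, were also found in every other class, at 34501 to 131378 UMIs per 1000000 (CPM) in old and 48823 to 127850 in young cells; their part in the class totals was not tested, and the hormone genes among them are outside the total used below.

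Shares below are percent, and levels CPM, of the UMIs left after 7 hormone genes and 13 mitochondrial genes were set aside, because growth hormone alone can fill much of a somatotroph's UMIs. Ribosomal protein genes took the largest shares in lymphocyte classes and the smallest in lactotroph-like cells of the old and stem cell-like cells of the young library. The share was 25.1% in old and 29.7% in young T or NK cell-like cells, and 23.1% in old and 29.9% in young B cell-like cells. Monocyte-like cells followed with 20.7% in old and 22.5% in young. The other 7 classes lay between 10.5% and 13.95% in the old library and between 10.8% and 15.02% in the young library. The fold between the highest and the lowest class was 2.39 in the old library, T or NK cell-like over lactotroph-like, and 2.77 in the young library, B cell-like over stem cell-like. In the young library the counting intervals of B cell-like and T or NK cell-like cells overlapped, as did those of pituicyte-like and somatotroph-like cells.

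**Figure D1:**
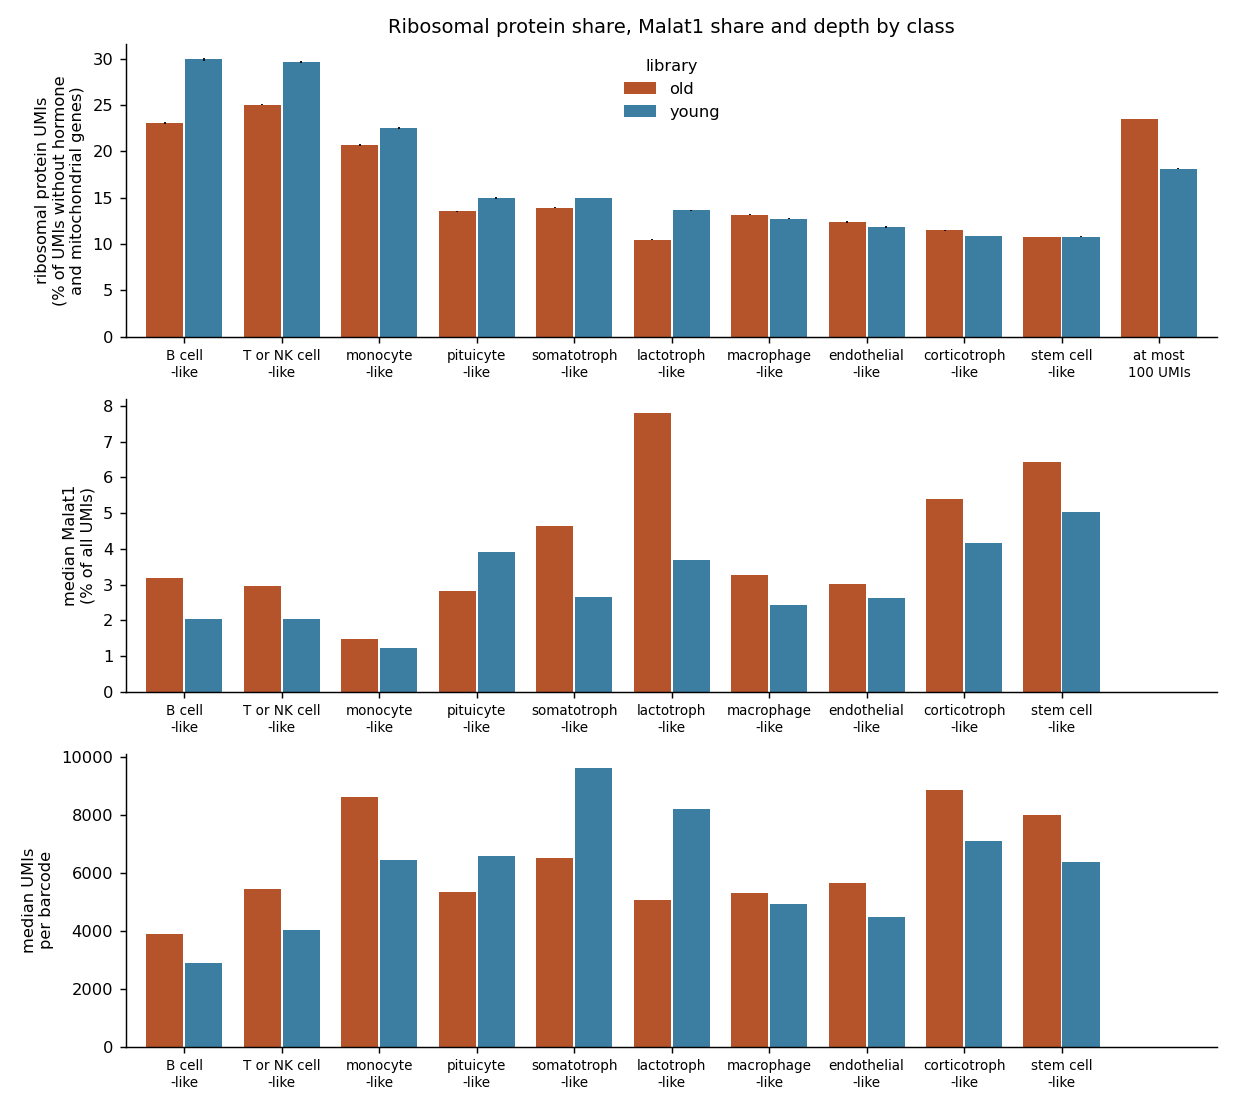
Ribosomal protein UMIs as percent of UMIs without hormone and mitochondrial genes (top, with 95% counting intervals), median Malat1 percent of all UMIs (middle) and median UMIs per barcode (bottom), for 10 classes, old bars left of young bars; the top panel adds barcodes of at most 100 UMIs. The 3 lymphoid and monocyte classes stand above 20% in both libraries, and barcodes of at most 100 UMIs held 23.5% in old and 18.1% in young.

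Large and small subunit genes kept nearly the same proportion within a class at both ages. The ratio of large to small subunit UMIs was 1.21 in old and 1.23 in young somatotroph-like cells, and 1.12 in old and 1.11 in young T or NK cell-like cells. It was higher in corticotroph-like cells, at 1.32 in old and 1.31 in young. The widest gap between the ages was that of endothelial cell-like cells, at 1.16 in old and 1.21 in young.

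Between the libraries, the direction of the ribosomal protein share depended on the class: it was lower in old than in young in 7 of the 10 classes and higher in 3. The lowest old over young ratios belonged to lactotroph-like cells, the prolactin producers, with 10.5% in old against 13.6% in young (ratio 0.769, 0.764 to 0.773), and to B cell-like cells (ratio 0.770, 0.763 to 0.777). T or NK cell-like cells had a ratio of 0.845, pituicyte-like cells 0.902 and monocyte-like cells 0.919. In somatotroph-like cells, the growth hormone producers and the most numerous class with 1123 old and 3989 young barcodes, the share was 13.95% in old against 14.97% in young (ratio 0.932, 0.930 to 0.934). That direction turned when all UMIs were the total, with a ratio of 1.12. The hormone share differed as well: its median was 22.5% of UMIs in old and 33.8% in young cells. The change of total moved the somatotroph-like ratio by 0.26 and the lactotroph-like ratio by 0.15 on the log2 scale, and the lactotroph-like ratio with all UMIs was 0.854. Markers of other hormone cells differed between the lactotroph-like cells of the libraries. The 5 thyrotroph markers, Tshb among them, summed to 726 CPM in old and 4700 in young lactotroph-like cells, and the 6 gonadotroph markers, which share Cga with them, to 610 in old and 3224 in young, none of these at 0 in either library. The 6 corticotroph markers summed to 6925 in old, with 1 of them at 0, and to 1250 in young, with none at 0. That difference was not particular to lactotroph-like cells, since the corticotroph sum was higher in old in every class. It was 6453 in old and 1157 in young somatotroph-like cells, and 5879 in old and 1173 in young stem cell-like cells. The lactotroph markers themselves summed to 59673 in old and 151132 in young; marker sums count hormone genes, although the total they are divided by leaves these out. The part of these differences in the ribosomal protein ratio was not tested.

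Stem cell-like cells had 10.8% in both libraries (ratio 0.995, 0.991 to 1.00). Corticotroph-like cells, the source of adrenocorticotropin, had 11.5% in old against 10.9% in young (ratio 1.06, 1.05 to 1.06), and endothelial cell-like and macrophage-like cells both had a ratio of 1.04. Single barcodes of a class varied widely: the quartiles of old corticotroph-like barcodes were 5.79% and 13.7%, and those of young ones 6.87% and 13.1%. Unlike the summed share, the median over corticotroph-like barcodes was lower in old, at 10.1% against 10.4% in young. By depth, the summed corticotroph-like share was lower in old from 5000 to under 10000 UMIs (9.53% in old, 10.6% in young). It was higher in old in the other depth bins. In macrophage-like cells the median of all measured genes was itself 0.16 above 0 on the log2 scale, and scaled to the median ratio of genes the macrophage-like ratio was 0.927.

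Within each library, Malat1, a long noncoding RNA kept in the nucleus, moved against the ribosomal protein share. Between the ages this did not hold in every class. Summed over barcodes, the Malat1 share of all UMIs was higher in old than in young in all 10 classes, by 1.08 to 1.77 times. These include corticotroph-like, endothelial cell-like and macrophage-like cells, whose ribosomal protein share was also higher in old. With all UMIs as the total for both, somatotroph-like ratios were 1.12 for ribosomal protein genes and 1.56 for Malat1. The Malat1 median was 7.80% in old and 3.68% in young lactotroph-like cells, and 4.64% in old and 2.66% in young somatotroph-like cells. Pituicyte-like cells were the exception by medians, with 2.83% in old and 3.90% in young. Across the 10 classes the ribosomal protein share and the Malat1 median had a Spearman correlation of -0.73 in old and -0.75 in young; the classes of a library share its depth and its free RNA. Over the barcodes of somatotroph-like cells the correlation was -0.84 in old (n = 1123) and -0.86 in young (n = 3989). Both shares come from the same barcodes but have unlike totals. Malat1 is a share of all UMIs, while the ribosomal protein share leaves out hormone and mitochondrial genes.

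Depth moved with the share in some classes only. Among somatotroph-like barcodes the correlation of the ribosomal protein share with UMIs was 0.69 in old and 0.72 in young, and among stem cell-like barcodes 0.11 in old and 0.01 in young. The median depth was 6504 UMIs in old and 9625 in young somatotroph-like cells, 5072 in old and 8213 in young lactotroph-like cells, and 7992 in old and 6383 in young stem cell-like cells. The 2 hormone classes with the deeper young barcodes were thus among those with the lower old share.

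The somatotroph-like class itself held barcodes of 2 kinds. Cluster 4 and cluster 6 had ribosomal protein shares of 16.2% in old against 16.8% in young and of 18.1% in old against 18.8% in young, with Malat1 medians of 2.41% in old and 1.56% in young for cluster 4 and of 1.82% in old and 1.17% in young for cluster 6. Their median depth was 16045 UMIs in old and 19109 in young for cluster 4, and their mitochondrial medians lay between 2.54% and 2.78%. Cluster 2 and cluster 3 had shares of 7.63% in old against 6.39% in young and of 6.43% in old against 6.16% in young, with Malat1 medians of 7.88% in old and 6.30% in young for cluster 2 and of 9.38% in old and 7.69% in young for cluster 3. Their median depth was 3855 UMIs in old and 4364 in young for cluster 3, and their mitochondrial medians lay between 9.30% and 11.1%. The difference between the kinds was therefore far larger than that between the ages, and its sign between the ages was opposite in the shallow and the deep clusters. A Malat1-poor corticotroph-like cluster held 22.7% in old and 19.1% in young, against 10.8% in old and 10.4% in young for the other corticotroph-like cluster. A Malat1-poor macrophage-like cluster held 21.6% in old and 22.9% in young.

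Within bins, the direction between the ages often differed from that of the whole class. In somatotroph-like barcodes of 2000 to under 5000 UMIs the share was 6.66% in old and 6.04% in young, from 5000 to under 10000 UMIs it was 8.94% in old and 7.74% in young, and from 10000 UMIs on it was 16.4% in old and 17.3% in young. Among barcodes with 2 to under 5% Malat1 it was 15.4% in old and 13.7% in young. It was 6.58% in old and 5.38% in young with 5% or more and 17.5% in old and 17.1% in young from 1 to under 2%, but 19.2% in old and 19.5% in young under 1%. In 3 of 4 Malat1 bins the old somatotroph-like share was thus the higher one. In lactotroph-like barcodes with 2 to under 5% Malat1 the share was 13.7% in old and 13.96% in young, and with 5% or more it was 6.71% in old and 6.05% in young. The bin of 5% or more held 200 of 283 old and 161 of 402 young lactotroph-like barcodes, so the barcodes rich in Malat1 and poor in ribosomal protein UMIs made up more of the old class. The part that Malat1 content and depth have in the differences between the ages was not tested beyond these bins.

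**Figure D2:**
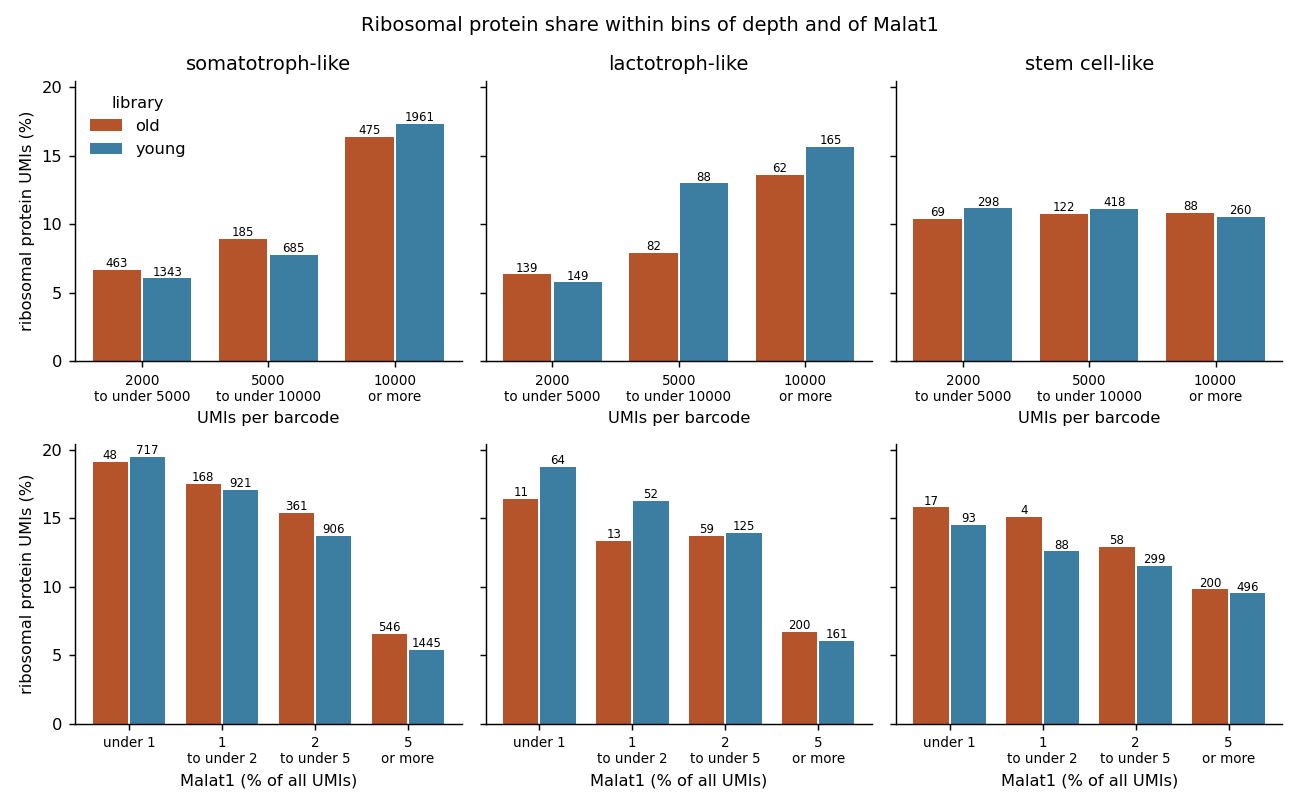
Ribosomal protein percent (old bars left of young bars) by UMIs per barcode (top row) and by Malat1 percent (bottom row) in somatotroph-like, lactotroph-like and stem cell-like cells, with the number of barcodes above each bar. Shares climb with depth in both hormone classes, while in stem cell-like cells they lie between 10.4% and 11.2% in every depth bin, and in all 3 classes they are lowest at 5% Malat1 or more; at 5% Malat1 or more the old bar is the higher one in each class.

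Of the 80 genes, 77 reached the 100 UMIs per class needed to be measured in somatotroph-like cells. The remaining 3 are paralogs used in other organs. Rpl10l, a testis paralog of Rpl10, had 0 UMIs in both libraries outside free RNA, which allows up to 0.130 CPM in old and 0.0564 in young. Rpl3l had 13 UMIs in old and 3 in young, and Rpl39l, a testis paralog of Rpl39, had 14 in old and 4 in young.

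Among the 10 genes with the highest levels over all classes were Rpl13, Rpl41, Rps27a, Rps24, Rps14, Rps21, Rps29, Rpl27a and Rps3a1; the 3' UMI count takes each transcript once and was not divided by length. Rpl13 stood at 3421 CPM over all old barcodes outside free RNA, and Rps27a, which encodes a ubiquitin fused to its ribosomal protein, at 2791 over the same old barcodes. Levels of single genes differed between classes by a median of 2.71-fold over the 77 genes, against a median of 3.33-fold over 14597 genes. Over the 178 genes with a level of at least 500 CPM in their median class it was 3.0-fold. By mean level over both libraries, 45 of the 77 genes were highest in T or NK cell-like cells and 23 in B cell-like cells, where 5.98% of all genes were highest in T or NK cell-like and 5.29% in B cell-like cells. At the other end, 36 were lowest in stem cell-like and 22 in corticotroph-like cells, where 3.21% of all genes were lowest in stem cell-like and 4.3% in corticotroph-like cells.

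Among the genes with the widest ranges between classes, Rps15a (4.53-fold), Rps24 (4.38-fold) and Rpl12 (4.11-fold) were highest in T or NK cell-like cells, and Rps24 reached 8433 CPM in old and 9698 in young there. Rps16, Rpl23, Rps27, Rpl39 and Rps26 also belonged to the 10 widest ranges. Rpl31 had the narrowest range, 1.52-fold, with 853 in old and 861 in young B cell-like cells and 622 in old and 505 in young stem cell-like cells.

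In somatotroph-like cells 21 of 77 measured ribosomal protein genes had an old over young ratio above 1, where 51.0% of all measured genes did. Past 1.2-fold lay 1 higher gene and 10 lower ones; among all genes 45.4% were past 1.2-fold in either direction, 23.9% higher and 21.5% lower. The median log2 ratio was -0.10 over the ribosomal protein genes and 0.01 over all 11992 measured genes. Most of the genes thus sat slightly below an even ratio with this total. With all UMIs as the total 20 genes were past 1.2-fold on the high side and 0 on the low side, among barcodes of 2000 to 5000 UMIs 23 on the high and 1 on the low side, and among barcodes with 2 to under 5% Malat1 18 on the high and 0 on the low side. The direction of single genes named for this class therefore holds relative to this total and to all its barcodes.

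The gene past 1.2-fold on the high side was Rpl23a, a protein at the exit of the peptide tunnel. It had 1254 CPM in old and 893 in young somatotroph-like cells (ratio 1.40, 1.37 to 1.44). Among the next highest ratios were those of Rpl22 (1.14), an RNA-binding protein of the large subunit, and of Rps27 (1.11), Rps21 (1.10), Rpl5 (1.09), Rps25 (1.08), Rps15 (1.07), Rpl36a (1.06) and Rpl37 (1.05). Being picked as the highest ratios, these genes stand above the family's median by selection.

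At the low end was Rpl29, a large subunit protein also known to bind heparin, with 813 CPM in old and 1114 in young somatotroph-like cells (ratio 0.730, 0.710 to 0.751). Rpl3, which reaches towards the peptidyl transferase centre, had 1522 in old and 2070 in young (ratio 0.735, 0.721 to 0.750). Rpl15, whose start window carries the longest pyrimidine run shown above, had 1216 in old and 1566 in young (ratio 0.777). Rps2, at the small subunit's mRNA entry, had a ratio of 0.785, and Rps18 one of 0.802. Rpl7l1 (0.809), Rpl17, Rpl18 and Rpl41 (0.831) were also among the 10 lowest. The lowest genes therefore came from both subunits.

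**Figure D3:**
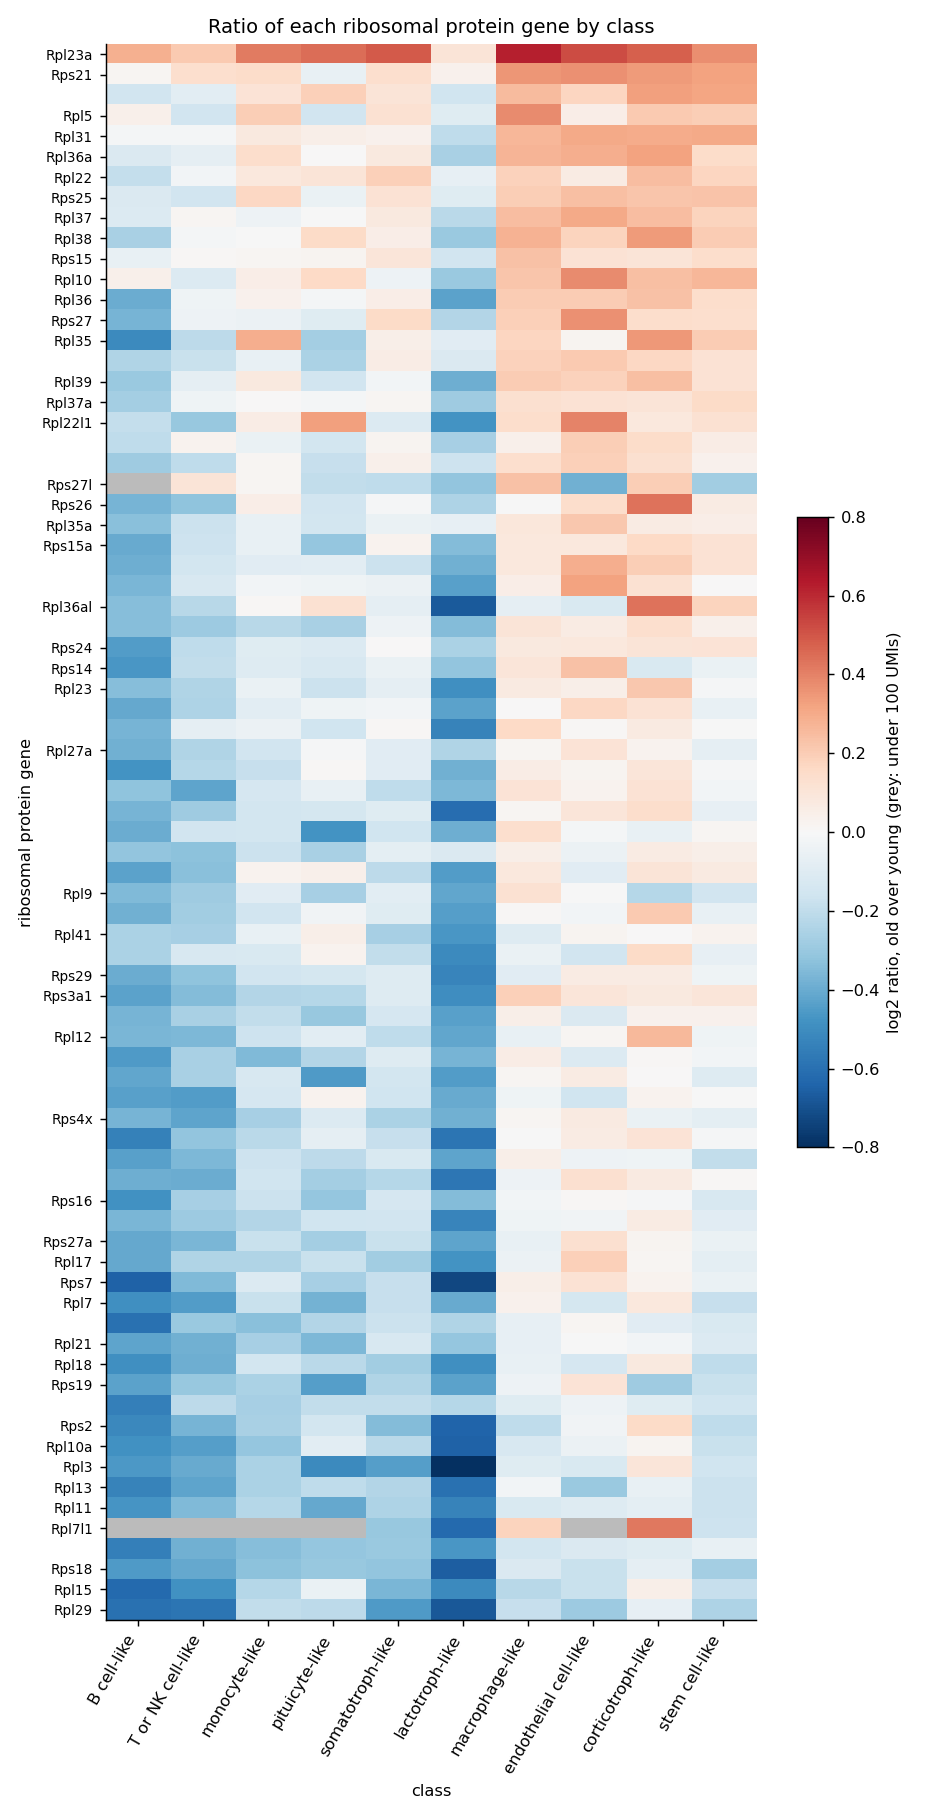
Log2 ratio of old over young for each ribosomal protein gene (rows, ordered by their median distance from the family's median, with genes of the text labelled) in 10 classes (columns, ordered by their young ribosomal protein share); red is higher in old, blue is lower in old, grey has under 100 UMIs. Rpl23a is red in all 10 columns and Rpl29 blue in all 10, while the B cell-like and lactotroph-like columns are blue for nearly every other gene.

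Rpl23a was higher in old in every class. Its ratio was above 1 in 10 of 10 classes, from 1.07 in lactotroph-like cells (878 CPM in old, 817 in young) to 1.54 in macrophage-like cells (1274 in old, 829 in young), with a median of 1.35. It was the 1 gene of the 75 measured in all 10 classes that was higher in old in all of them, whereas 12.5% of the 649 genes measured in all 10 classes were. In barcodes of at most 100 UMIs Rpl23a was also higher in old, at 1288 in old and 929 in young (ratio 1.39). There nearly the whole family was higher in old, with a summed ratio of 1.29. Of 77 measured family genes, 75 were above 1 in these barcodes, beside 37.3% of all genes. Among barcodes of 2000 to 5000 UMIs Rpl23a was higher in 6 of 7 classes with enough barcodes.

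Rps21, a small subunit protein, was higher in old in 9 of 10 classes, with pituicyte-like cells as the exception (3766 in old, 3931 in young, ratio 0.958). Its ratio reached 1.29 in endothelial cell-like and 1.27 in macrophage-like cells (2560 in old, 2008 in young). In barcodes of at most 100 UMIs it stood at 5505 in old and 3318 in young (ratio 1.66). With ribosomal protein genes left out of the total, or with 10% free RNA subtracted, it was higher in 7 of 10 classes. Of the 75 genes measured in all 10 classes, 12 stood above the family's median ratio in every class and 9 below it in every class. Because the yardstick is the family's own median, no share of all genes stands beside these counts. Among the 12 were Rpl23a, Rps21, Rps25, Rps27, Rpl10, Rpl22, Rpl31, Rpl36a, Rpl37, Rpl37a and Rpl38.

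Lower in old in all 10 classes were 7 genes, among them Rpl29, Rps18, Rpl11, Rpl13 and Rpl21. That is 7 of the 75 genes measured throughout, beside 5.24% of the 649 such genes of any kind. Rpl29 had 649 CPM in old and 1037 in young lactotroph-like cells (ratio 0.626), and 765 in old and 802 in young corticotroph-like cells (ratio 0.954). Rps18 had 4016 in old and 5324 in young T or NK cell-like cells (ratio 0.754), and 1196 in old and 1887 in young lactotroph-like cells (ratio 0.634). Rpl11, which with Rpl5 can bind Mdm2, the p53 inhibitor, ran from 0.690 to 0.947, while Rpl5 lay above 1 in 7 of 10 classes, up to 1.30 in macrophage-like cells. With all UMIs as the total, Rpl11 and Rpl13 were each above 1 in 1 of 10 classes; among barcodes with 2 to under 5% Malat1, Rpl29 was above 1 in 1 of 7 classes, Rps18 in 2, Rpl11 in 3 and Rpl13 in 2. Rpl29, Rps18 and Rpl13 were each above 1 in 1 of 7 classes among barcodes of 2000 to 5000 UMIs, Rpl29, Rps18 and Rpl11 each in 1 of 11 at a mitochondrial limit of 25%, and Rpl11 in 1 class at a limit of 10% and at resolution 0.5. In barcodes of at most 100 UMIs both were above 1, at 1.12 for Rpl29 and 1.198 for Rps18.

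**Figure D4:**
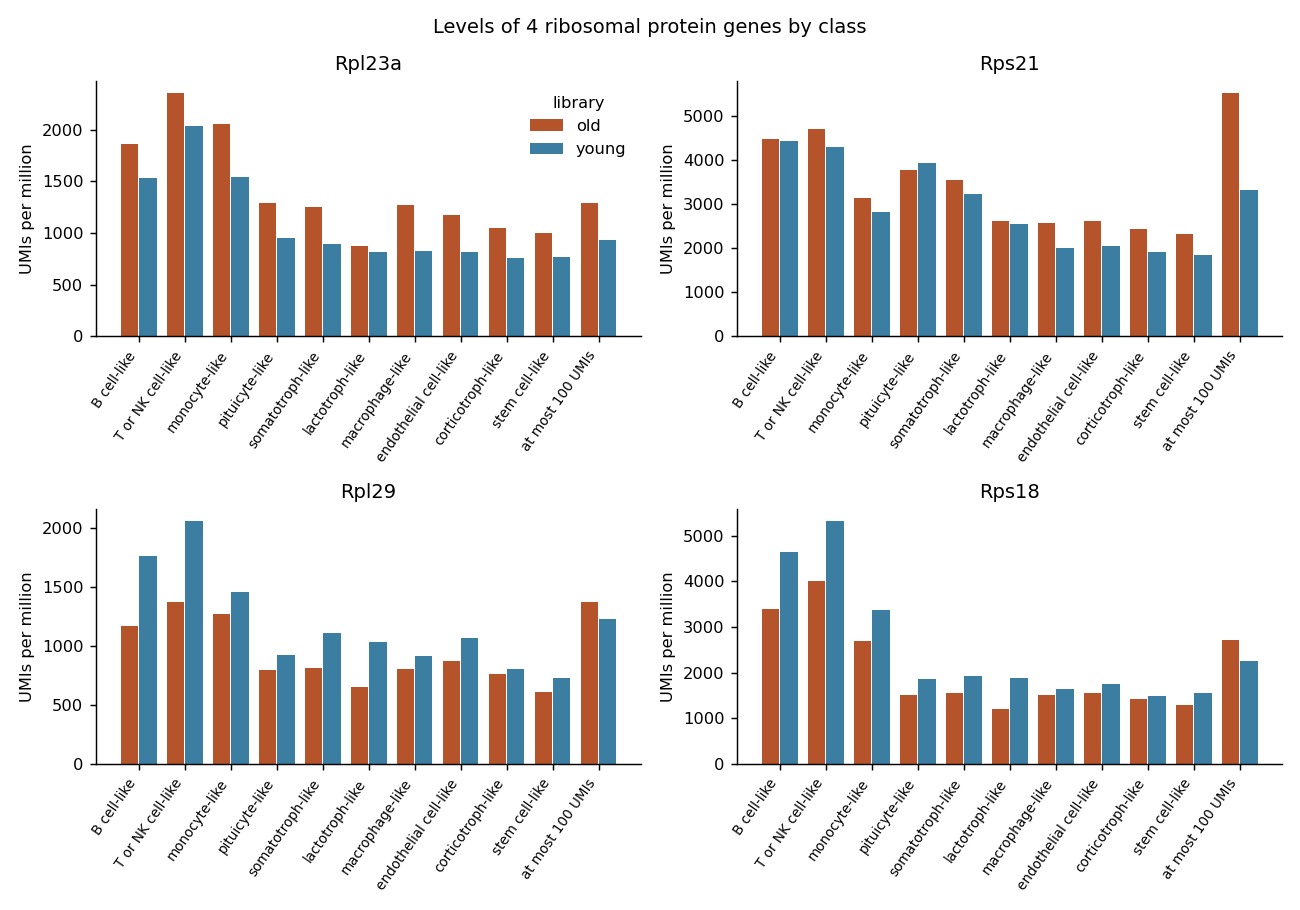
CPM, the UMIs per 1000000 UMIs without hormone and mitochondrial genes, of Rpl23a, Rps21, Rpl29 and Rps18 in 10 classes and in barcodes of at most 100 UMIs, old bars left of young bars. Rpl23a is higher in old in every pair; Rpl29 and Rps18 are lower in old in the 10 classes and higher in old in barcodes of at most 100 UMIs.

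In lactotroph-like cells 2 of 77 ribosomal protein genes had a ratio above 1, where 57.2% of all measured genes did, and 56 were at least 1.2-fold lower, where 22.1% of all genes were (57.5% in either direction). The median log2 ratio was -0.40 over the family and 0.09 over all genes. No gene was at least 1.2-fold higher, where 35.3% of all genes were. The genes above 1 were Rpl23a at 1.07 and Rps21 at 1.02, followed by Rpl22 (0.955), Rpl35a (0.954) and Rpl35 (0.941). The lowest were Rpl3, with 1020 CPM in old and 1827 in young (ratio 0.558, 0.529 to 0.589), Rps7 with 1253 in old and 2079 in young (ratio 0.603), Rpl29, Rpl36al with 576 in old and 917 in young (ratio 0.628), and Rps18. The low share of the class was thus spread over nearly all of its genes; among lactotroph-like barcodes with 2 to under 5% Malat1 the ratio of the summed share was 0.984.

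In corticotroph-like cells most genes lay on the other side of an even ratio, but the family stayed close to all genes. The median log2 ratio was 0.10 over the family and 0.06 over all genes. Scaled to the median ratio of genes, the summed ratio was 1.01. Of 77 genes, 62 were above 1, beside 57.7% of all genes. At least 1.2-fold higher were 10, beside 27.3% of all genes (45.2% in either direction). The highest were Rpl23a (ratio 1.39), Rpl36al with 602 CPM in old and 446 in young (ratio 1.35, 1.27 to 1.43), Rps26 with 937 in old and 693 in young (ratio 1.35), Rpl7l1 (ratio 1.34) and Rpl35 (ratio 1.27). The lowest was Rps19, a gene mutated in human Diamond-Blackfan anaemia, with 1670 in old and 2036 in young (ratio 0.821), the 1 gene at least 1.2-fold lower, where 17.9% of all genes were. Rpl9 (0.855) and Rps14 (0.920) followed. Rpl36al therefore stood at opposite ends in corticotroph-like and lactotroph-like cells.

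In macrophage-like cells 50 of 77 genes were above 1, beside 67.6% of all genes, and 5 were at least 1.2-fold higher, beside 39.3% (50.7% in either direction). These were Rpl23a (1.54), Rpl5 with 1252 CPM in old and 962 in young (ratio 1.30), Rps21 (1.27), Rpl38 (1.21) and Rpl36a (1.21). None was at least 1.2-fold lower, where 11.4% of all genes were; the lowest were Rpl15 (0.856), Rps2 (0.869) and Rpl29 (0.879), with Rpl10a (0.916) also among the 5 lowest. In stem cell-like cells 36 of 77 were above 1, beside 50.8% of all genes, 5 were at least 1.2-fold higher, beside 21.1%, and 2 at least 1.2-fold lower, beside 19.0% (40.1% in either direction). Among the 5 were Rpl23a (1.29), Rps21 (1.25), Rpl31 (1.23) and Rpl10 (1.201), and the lowest were Rps27l (0.826), Rps18 (0.829), Rpl29 (0.841), Rps2 and Rpl18. Rpl23a and Rps21 were thus among the highest, and Rps2 and Rpl29 among the lowest, in both classes.

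Lymphocyte classes resembled lactotroph-like cells in their counts. In B cell-like cells 4 of 75 measured genes were above 1, beside 45.7% of all genes, 1 was at least 1.2-fold higher, beside 26.2%, and 58 were at least 1.2-fold lower, beside 32.4% (58.6% in either direction); Rpl15 had 1904 CPM in old and 2931 in young there (ratio 0.650). In T or NK cell-like cells 6 of 76 were above 1, beside 59.0% of all genes, and 35 were at least 1.2-fold lower, beside 14.9%, with 0 at least 1.2-fold higher, beside 32.6% (47.5% of all genes in either direction). The Malat1 median was 3.18% in old and 2.03% in young B cell-like cells, and 2.97% in old and 2.03% in young T or NK cell-like cells, while median depth was 3904 UMIs in old and 2874 in young B cell-like cells, and 5437 in old and 4016 in young T or NK cell-like cells. The lower old share thus stood beside deeper old barcodes here and beside shallower ones in lactotroph-like cells. Monocyte-like cells had 20 of 76 genes above 1, beside 56.8% of all genes; 2 were at least 1.2-fold higher, beside 27.0%, and 8 at least 1.2-fold lower, beside 16.0% (43.0% in either direction). Pituicyte-like cells had 15 of 76 above 1, beside 50.7%, with 2 at least 1.2-fold higher, beside 26.2%, and 16 lower, beside 25.2% (51.3% in either direction). Endothelial cell-like cells had 50 of 76 above 1, beside 44.9%, with 10 at least 1.2-fold higher, beside 24.1%, and 3 lower, beside 32.8% (56.9% in either direction).

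Paralogs did not all follow the family. Rpl22 was highest in lymphocyte classes, with 1652 CPM in old and 1675 in young T or NK cell-like cells, and in mice its loss is known to block the development of alpha-beta T cells. Its paralog Rpl22l1 was highest in corticotroph-like cells, with 1368 in old and 1291 in young, and lowest in old monocyte-like cells, with 525 in old, and in young endothelial cell-like cells, with 416 in young. In corticotroph-like cells Rpl22 had 662 in old and 557 in young, below Rpl22l1. In T or NK cell-like cells Rpl22l1 had 798 in old and 987 in young, below Rpl22. The order within the pair thus differed between T or NK cell-like and corticotroph-like cells. Rps27 was highest in B cell-like cells, with 4503 in old and 5826 in young, whereas Rps27l, which p53 is known to induce in human cells, was lowest there, with 113 in old and 79.4 in young, and highest in pituicyte-like cells, with 313 in old and 359 in young. With every barcode thinned to 2000 UMIs, Rps27l was found in 16.9% of old and 12.1% of young B cell-like barcodes and in 31.6% of old and 49.1% of young pituicyte-like barcodes. Without thinning the shares were 33.7% of old and 17.7% of young B cell-like and 75.8% of old and 79.2% of young pituicyte-like barcodes.

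Of the other pairs, Rpl36a and its paralog Rpl36al stood at 909 CPM in old and 861 in young and at 940 in old and 988 in young somatotroph-like cells. In lymphocyte classes Rpl36a was the higher of the pair, with 1371 in old and 1438 in young T or NK cell-like cells, against 759 in old and 887 in young for Rpl36al. Rpl7l1 was far below Rpl7, at 35.9 in old and 44.4 in young against 1265 in old and 1441 in young for Rpl7 in somatotroph-like cells. Rps4x, an X-linked small subunit gene, had 2326 in old and 2770 in young there (ratio 0.840). Rpl10 stood at 2995 in old and 3078 in young somatotroph-like cells, beside the 0 UMIs of Rpl10l.

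**Figure D5:**
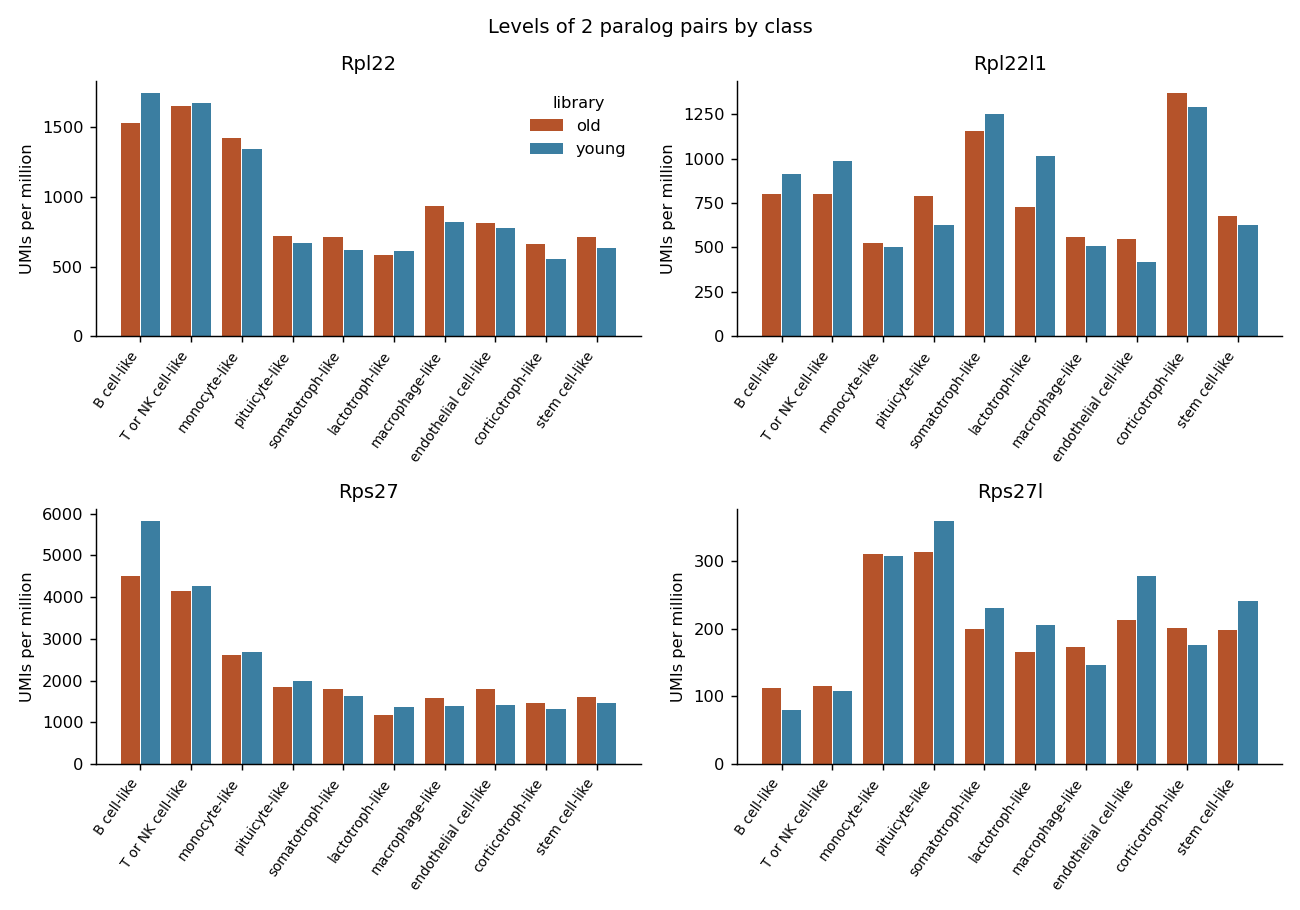
CPM, the UMIs per 1000000 UMIs without hormone and mitochondrial genes, of Rpl22 and Rpl22l1 and of Rps27 and Rps27l in 10 classes, old bars left of young bars, with an axis of its own for each gene. Rpl22 and Rps27 are highest in the lymphocyte classes at the left, Rpl22l1 in corticotroph-like and somatotroph-like cells, and Rps27l in pituicyte-like and monocyte-like cells.

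Ribosomal protein genes have many near-identical processed copies in the mouse genome, and the gene list itself holds copies related to Rpl9, Rpl10, Rpl36, Rpl36a and Rps27 as genes of their own. How reads that match several copies were counted is not given in the sources used here, so the level of a single member can include or lack reads of its copies.

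The 7 ribosomal proteins whose names fall outside the pattern lay on both sides of an even ratio. In somatotroph-like cells 3 of 7 were above 1, beside 51.0% of all genes, 2 at least 1.2-fold higher, beside 23.9%, and 2 at least 1.2-fold lower, beside 21.5%, with a median log2 ratio of -0.09 beside 0.01 over all genes. Rplp0, the base of the ribosomal stalk, had 1074 CPM in old and 1684 in young (ratio 0.638, 0.623 to 0.653), while Rplp2, a stalk protein that binds to it, had 1778 in old and 1452 in young (ratio 1.22, 1.2 to 1.25). Rack1, a small subunit scaffold, had a ratio of 0.792. Members of the same stalk thus stood on opposite sides.

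Of 20 translation factors and other growth-regulated mRNAs, many of them with a TOP start, 3 were above 1 in somatotroph-like cells, beside 51.0% of all genes. None was at least 1.2-fold higher, beside 23.9%, and 5 were at least 1.2-fold lower, a share near the 21.5% of all genes. The median log2 ratio was -0.13 beside 0.01 over all genes. With all UMIs as the total each log2 ratio in somatotroph-like cells moves up by 0.26. Eef1a1, which brings aminoacyl-tRNA to the ribosome, had 4071 CPM in old and 4716 in young (ratio 0.863), and Eef1g, a subunit of its exchange factor, 548 in old and 739 in young (ratio 0.742). In lactotroph-like cells 0 of 20 were above 1, beside 57.2% of all genes, and 14 were at least 1.2-fold lower, beside 22.1%, with a median of -0.35 beside 0.09 over all genes; Tpt1, a growth-related TOP mRNA, had 2575 in old and 3916 in young (ratio 0.658). In corticotroph-like cells 10 of 20 were above 1, beside 57.7% of all genes, with a median of 0.00 beside 0.06 over all genes. Among the 5 classes of at least 200 barcodes per library, the list thus had its lowest median in the same class as the ribosomal protein genes.

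Ribosome biogenesis genes, which build ribosomes in the nucleolus, had median log2 ratios above 0 in somatotroph-like, lactotroph-like and corticotroph-like cells. In somatotroph-like cells 19 of 30 were above 1, beside 51.0% of all genes, 9 at least 1.2-fold higher, beside 23.9%, and 0 at least 1.2-fold lower, beside 21.5%, with a median log2 ratio of 0.14 beside 0.01 over all genes. Nop58, a core protein of box C/D particles, had 214 CPM in old and 135 in young (ratio 1.58, 1.49 to 1.68), Ddx21, a nucleolar helicase, 58.6 in old and 41.1 in young (ratio 1.43), and Ubtf, a factor of RNA polymerase I, 76.8 in old and 54.6 in young (ratio 1.41). In lactotroph-like cells 14 of 21 measured were above 1, beside 57.2% of all genes, and 10 at least 1.2-fold higher, beside 35.3%, with a median of 0.26 beside 0.09 over all genes. In corticotroph-like cells 21 of 27 were above 1, beside 57.7% of all genes, with a median of 0.25 beside 0.06 over all genes and 0.10 over the ribosomal protein genes. In lactotroph-like cells the lists for making ribosomes and for their proteins therefore had medians of opposite sign. The same held in somatotroph-like cells (0.14 and -0.10) and, with a family median near even, in stem cell-like cells (0.12 and -0.01). In somatotroph-like cells this rests on the total used, since all UMIs as the total moves each log2 ratio there up by 0.26. In corticotroph-like and macrophage-like cells both medians were above 0.

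Barcodes of at most 100 UMIs, which hold free RNA rather than cells, carried more ribosomal protein RNA in the old library. Their share was 23.5% in old and 18.1% in young (ratio 1.29, 1.29 to 1.30), and Malat1 made up 0.735% of old and 1.61% of young UMIs there. Of 77 measured ribosomal protein genes, 75 had a ratio above 1, beside 37.3% of all genes, and 53 were at least 1.2-fold higher, beside 18.3%, with 0 at least 1.2-fold lower, beside 37.6% (55.9% in either direction). In barcodes of 500 to 900 UMIs the share was 21.2% in old and 18.7% in young. Malat1 there was higher in old, at 0.644% of old and 0.382% of young UMIs, opposite to barcodes of at most 100 UMIs. In these larger barcodes 65 of 77 genes were above 1, beside 54.5% of all genes. At least 1.2-fold higher were 24, beside 30.1%, with 0 lower, beside 22.0% (52.1% in either direction). Over all barcodes outside free RNA the share was 13.4% in old and 13.9% in young (ratio 0.962, 0.961 to 0.963), with 27 of 77 genes above 1, beside 52.7% of all genes, 1 at least 1.2-fold higher, beside 26.0%, and 3 lower, beside 18.7% (44.7% in either direction). The direction in free RNA was thus opposite to that over the cells; with all UMIs as the total the ratio over the cells was 1.14. The part of free RNA in the shares of the classes was not tested beyond the subtraction of 10%, which gave a somatotroph-like ratio of 0.883.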

How the data were processed

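Droplet-based 3' libraries of pooled pituitary glands were measured, 1 per age. The authors deposited unnormalized whole-number UMI counts, 1 value per gene in each observed barcode. The submitters' processing notes name FastQC, Cell Ranger 6.0.2 and the build GRCm39, while the matrix header names a software version of 4; settings are not given in the sources used here. The tables held 138427393 old and 154510099 young UMIs. Here, barcodes with at least 2000 UMIs, at least 500 genes and at most 15% mitochondrial UMIs were kept, and those with the highest Scrublet scores were removed at 0.8% per 1000 barcodes (766 old and 679 young; the tool's own threshold called 0.0307% of old and 0% of young barcodes, so it was not used). Both libraries were clustered together with scanpy 1.11.5 (3000 variable genes chosen per library without ribosomal protein genes, 40 components, 15 neighbours, Leiden resolution 1) and named from marker lists. A name also needed 0.333 of the best score of its class, a rule added after the clusters were seen, which leaves 187 old and 304 young barcodes unnamed. A cluster with a profile correlating at 0.95 or more with barcodes of at most 100 UMIs was called free RNA. Sums of UMIs within a class of each library were divided by the total without 7 hormone and 13 mitochondrial genes. A gene needed 100 UMIs over both libraries in a class. Each ratio sets old over young and has an exact Poisson interval conditioned on the summed count; shares carry exact Clopper-Pearson intervals. Both cover counting error only. The interval code was checked on simulated counts. The ribosomal protein genes and all lists were chosen with earlier results of these data known. Named are the 10 highest and 10 lowest ratios in somatotroph-like cells, 5 and 5 in each other class of at least 200 barcodes per library, the 10 highest levels, the 10 widest ranges between classes, paralog pairs, and members of the 5 lists; other names were chosen after their values were seen. Some genes that this rule names are not reported here. Alternatives changed the total, the filters, the doublet step, the clustering and the barcodes compared.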

Additional observations from a re-analysis of the deposited data

Results flagged for a closer look

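The old over young ratio of the summed ribosomal protein share pointed in opposite directions in hormone-producing classes. It was 0.769 in lactotroph-like cells and 1.06 in corticotroph-like cells, and the difference was not tested, since each age is 1 library. By the median over barcodes both classes were lower in old. The medians were 6.49% in old and 11.8% in young lactotroph-like cells, and 10.1% in old and 10.4% in young corticotroph-like cells. The Malat1 median was 7.80% in old and 3.68% in young lactotroph-like cells, and 5.39% in old and 4.17% in young corticotroph-like cells; its part in the difference was not tested.

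The near-empty barcodes (100 UMIs or fewer), outside every comparison of cells, carried ribosomal protein genes at 23.5% in old and 18.1% in young, a ratio of 1.29. There 75 of 77 measured ribosomal protein genes were above 1, beside 37.3% of all measured genes, and 54 of them were below 1 in somatotroph-like cells.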

How the results depend on the processing

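The somatotroph-like ratio of 0.932 turned to 1.12 with all UMIs as the total, to 1.10 with only barcodes of 2000 to 5000 UMIs, and to 1.12 with only barcodes of 2 to under 5% Malat1, an alternative chosen after seeing the data; the cause was not tested. It moved without turning to 0.921 with ribosomal protein genes left out of the total, 0.927 with a median-ratio size factor, 0.883 with 10% free RNA subtracted, 0.966 without barcodes poor in Malat1, 0.977 with clusters weighted as in young, 0.955 with a minimum of 3000 UMIs, 0.910 and 0.938 with mitochondrial limits of 10% and 25%, 0.940 without doublet removal, 0.941 at resolution 2 and 0.934 with ribosomal protein genes kept for clustering. The count of 11 somatotroph-like genes past 1.2-fold moved to 20 with all UMIs, 23 with free RNA subtracted, 6 without Malat1-poor barcodes, 24 with 2000 to 5000 UMIs, 5 with young cluster weights, 18 with 2 to under 5% Malat1 and 0 at a 1.5-fold limit; with all UMIs and with 2 to under 5% Malat1 all of these were higher in old, with 2000 to 5000 UMIs 23 were, and in the other settings that made calls 1 was. The number of classes with the higher old share, 3 of 10 as reported, lay between 2 and 4 in the 17 settings, which compared 7 to 11 classes. It was 4 of 7, and so most of the classes compared, with only barcodes of 2000 to 5000 UMIs. The same count of 4 of 7 was found with only barcodes of 2 to under 5% Malat1.

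The fold between the highest and lowest class, 2.39 in old and 2.77 in young, became 2.66 in old and 3.39 in young with all UMIs, 2.85 in old and 3.52 in young with ribosomal protein genes left out of the total, 2.67 in old and 2.95 in young with free RNA subtracted, 2.88 in old and 2.85 in young as a mean of per-cell shares, 4.08 in old and 5.27 in young with 2000 to 5000 UMIs, 2.08 in old and 2.59 in young with 2 to under 5% Malat1, 2.85 in old and 3.11 in young at 1000 UMIs, 3.43 in old and 4.81 in young at 25% mitochondrial UMIs, and 2.25 in old and 2.43 in young without doublet removal. It became 2.22 in old at 10% mitochondrial UMIs and 2.41 in old at resolution 0.5, and in young 2.88 without Malat1-poor barcodes and 2.71 at 3000 UMIs. The size factor gives no value for this fold, and weighting clusters as in young none for the young library. Corticotroph-like and endothelial cell-like shares were higher in old, and B cell-like, T or NK cell-like, monocyte-like and pituicyte-like shares lower, in every setting that gave a ratio for that class (10 to 15 settings); lactotroph-like shares were higher in 1 of 15, at 1.10, with barcodes of 2000 to 5000 UMIs, macrophage-like shares in 14 of 15 and stem cell-like shares in 3 of 15. These ratios all come from summed UMIs, whereas the median over corticotroph-like barcodes was lower in old (10.1% in old, 10.4% in young). No paired analysis was possible because each age has 1 library. Depth limits the rare paralogs Rpl10l, Rpl3l and Rpl39l, whose levels lie at a few UMIs.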

Other observations

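Mitochondrial ribosomal protein genes, whose products serve the ribosome inside mitochondria and whose mRNAs come from the nucleus, had ratios below 1 for the most part in somatotroph-like cells. Of 78 genes, 14 were above 1, beside 51.0% of all genes, and 1 was at least 1.2-fold higher, beside 23.9%. The 17 genes at least 1.2-fold lower were a share near the 21.5% of all genes, with a median log2 ratio of -0.17 beside 0.01 over all genes. These directions rest on the total used, since all UMIs as the total moves each log2 ratio in somatotroph-like cells up by 0.26. Mrps6 had 152 CPM in old and 318 in young (ratio 0.479, 0.450 to 0.510), Mrpl34 had a ratio of 0.649 and Mrpl33 one of 0.729, while Mrps10 had 28.1 in old and 23.1 in young (ratio 1.22). In lactotroph-like cells 16 of 70 measured genes were above 1, beside 57.2% of all genes, with a median of -0.28 beside 0.09 over all genes, and in corticotroph-like cells 36 of 78, beside 57.7%, with a median of -0.01 beside 0.06.

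Genes that control ribosomal protein translation and growth were close to the background shares in somatotroph-like cells: 11 of 20 were above 1, beside 51.0% of all genes, 4 at least 1.2-fold higher, beside 23.9%, and 4 at least 1.2-fold lower, beside 21.5%, with a median log2 ratio of 0.05. Rps6kb1, the kinase of the ribosomal protein Rps6, had 102 CPM in old and 76.4 in young (ratio 1.34), and Myc had 18.5 in old and 13.3 in young (ratio 1.39). Sesn1, an inhibitor of mTOR signalling, had 57.9 in old and 80.5 in young (ratio 0.719), and Larp1, which binds TOP starts, had a ratio of 1.15.

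Barcodes that the comparisons between classes left out also differed widely in their ribosomal protein shares. The share was 5.13% in 46 old and 6.54% in 51 young erythroid-like barcodes, 8.24% in 149 old and 8.91% in 45 young melanotroph-like ones, 10.2% in 66 old and 6.68% in 25 young neutrophil-like ones, 11.3% in 39 old and 9.42% in 31 young fibroblast-like ones, and 12.9% in 31 old and 13.4% in 50 young gonadotroph-like ones. The unnamed cluster, with 4 haemoglobin genes and Gh among its 10 leading genes, held 25.4% in 187 old and 27.2% in 304 young barcodes, with Malat1 medians of 0.191% in old and 0.0711% in young; the old free RNA cluster held 23.9%, with a Malat1 median of 0.449%.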
